A study of Mus musculus with 6 samples.

Results

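Thymidine kinase and its neighbours in S-phase metabolism were followed here in mouse liver as a set of 10 genes out of 22180 with a usable probe set. Tk1 and Tyms make thymidine nucleotides, Rrm1 and Rrm2 encode the subunits of ribonucleotide reductase, and Mcm2, Mcm3, Mcm4, Mcm5, Mcm6 and Mcm7 encode the replicative helicase. The members were taken by gene symbol from probe sets that carry a single symbol, using the probe set with the highest mean over the 6 arrays where a gene had more than 1. The mean signal therefore picked the probe set, and the set as a whole was chosen by function with the KO against WT value of Tk1 already known. The differences between genotypes below thus describe the members and carry no test of their own. The tissue was liver of male mice on a C57BL/6J background, 3 with a whole-body knockout (KO) of the G protein-coupled receptor gene Gpr146 and 3 wild-type (WT) littermates. All 6 were 24 weeks old, had eaten chow, and had been fasted for 16 hours and refed for 6 hours. Each liver came from 1 mouse and was measured on 1 whole-transcript Affymetrix array, whose values are given here as log2 signal.

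A dividing cell must supply the DNA precursors and open the replication origins before it can copy its genome. Thymidylate synthase (Tyms) forms dTMP from dUMP, thymidine kinase 1 (Tk1) recovers it from free thymidine in the cytosol, and ribonucleotide reductase turns ribonucleotides into deoxyribonucleotides. The MCM proteins form a ring of different subunits that is loaded onto origins in G1 and becomes the core of the replication helicase in S phase. These genes are textbook targets of the E2F transcription factors and rise together when cells leave quiescence. In the intact adult liver few hepatocytes divide, and the same genes are known for their strong induction after partial hepatectomy.

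The arrays were alike, with medians of 2.67 to 2.73 and pairwise correlations of 0.983 to 0.988. Gpr146 measured 4.61, 4.28 and 3.87 in KO mice 1 to 3, against 5.96, 5.56 and 5.65 in WT mice 1 to 3. The targeted gene was thus lower in every KO mouse, with limma's adjusted p at 0.0702; it passed 0.05 in 3 of 14 alternatives. Alb, the albumin gene, averaged 11.91 ± 0.01 in KO and 11.92 ± 0.02 in WT (SD, n = 3 each). The comparison of KO with WT was fitted over the 11090 genes that made up the top 50% by mean signal, with 2.99 as the lowest mean, and all 10 members were among them. At an adjusted p under 0.05 limma called 4 of those genes, which is 0.0361%, and 0 of the 10 members. At an unadjusted p under 0.05 it counted 1 member, Tk1, beside 9.13% of all genes tested. KO and WT did not overlap in 1 member, again Tk1, beside 14.8% of all genes tested. As Tk1 was singled out from this same contrast, nothing is read from those counts.

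Tk1 was higher in the KO livers, and it was the member with the widest gap between genotypes. Its log2 signal was 5.81, 6.43 and 6.16 in KO mice 1 to 3. In WT mice 1 to 3 it was 5.14, 5.06 and 5.35. The lowest KO mouse lay above the highest WT mouse, and the KO mice were more spread out than the WT mice. The means were 6.13 ± 0.31 in KO and 5.18 ± 0.15 in WT (SD, n = 3 each), a difference of 0.95 ± 0.16 (SE of the fit), or a signal 1.93-fold higher in KO. Of the 11090 genes tested, 17 had a higher difference and 11072 a lower one. Leaving out each mouse in turn kept the difference between 0.80, without KO mouse 2, and 1.11, without KO mouse 1. In whole liver, more cells with Tk1 transcripts and more Tk1 transcripts per cell cannot be told apart.

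**Figure D1:**
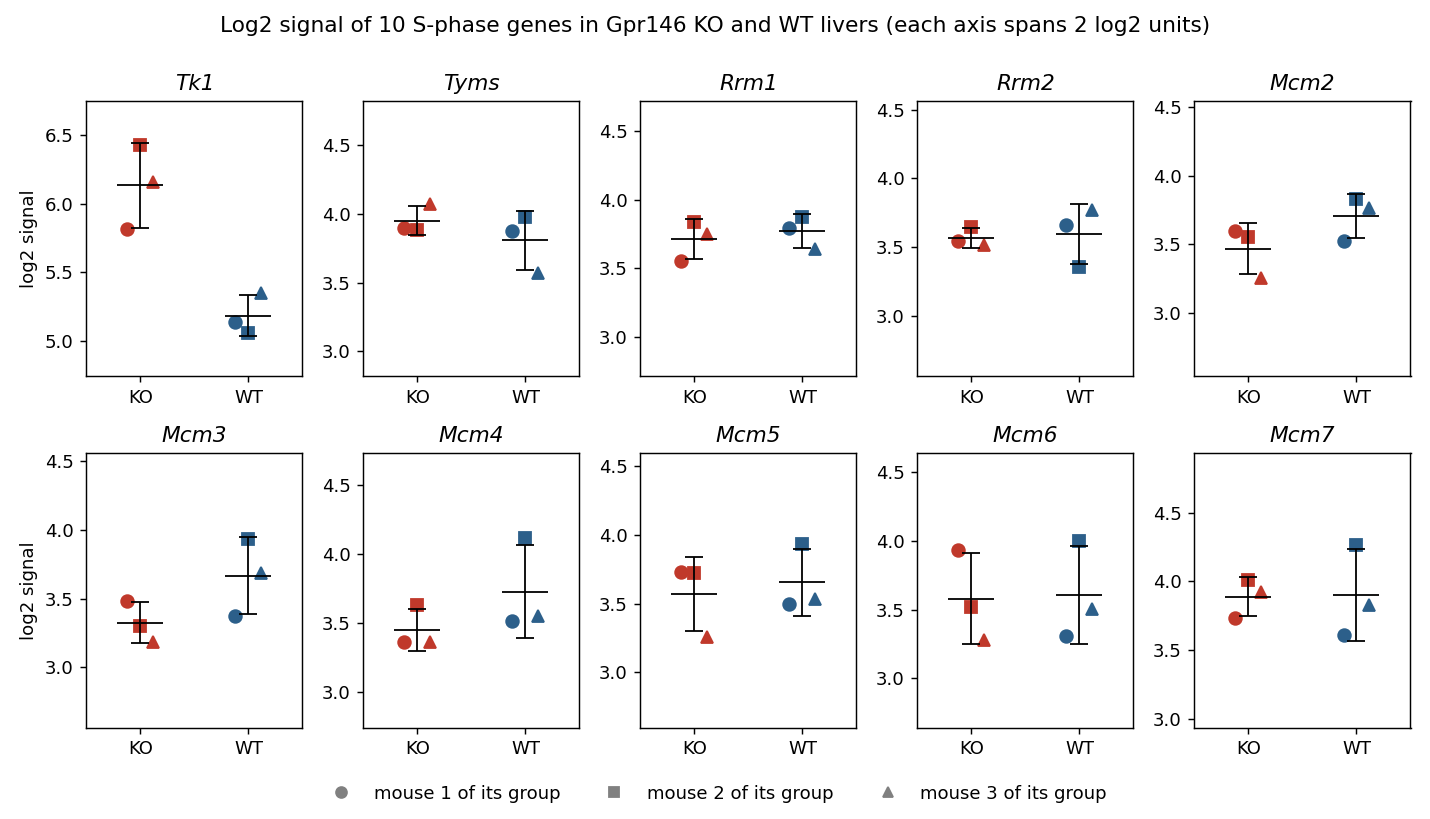
Log2 signal (vertical axes, each spanning the same width) of the 10 genes in KO livers (left in each panel) and WT livers (right), 1 marker per mouse, with the mean and SD of 3 mice as bars. For Tk1 the KO mice sit at 5.81 to 6.43 and the WT mice at 5.06 to 5.35, while in the 9 other panels the groups overlap.

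Tyms, the other route to thymidine nucleotides, showed no such gap. Its log2 signal was 3.90, 3.88 and 4.07 in KO mice 1 to 3, against 3.87, 3.98 and 3.57 in WT mice 1 to 3. WT mouse 2 lay within the KO range, WT mouse 1 just below it and WT mouse 3 farther below. The difference was 0.14 ± 0.13 (SE), with a 95% interval of -0.14 to 0.43. Leaving out a mouse moved it between 0.02, without WT mouse 3, and 0.23, without WT mouse 2, and it was 0.08 without KO mouse 3.

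The differences of both ribonucleotide reductase subunits were smaller than their standard errors, and their signs turned with 1 mouse left out. Rrm1, the large catalytic subunit, measured 3.55, 3.84 and 3.75 in KO mice 1 to 3, against 3.80, 3.88 and 3.64 in WT mice 1 to 3. The difference was -0.06 ± 0.11 (SE), with a 95% interval of -0.31 to 0.20, and leaving out a mouse gave -0.12, without WT mouse 3, to 0.02, without KO mouse 1. Rrm2, the small subunit that carries the tyrosyl radical and sets the S-phase timing of the enzyme, measured 3.54, 3.65 and 3.51 in KO mice 1 to 3, against 3.66, 3.35 and 3.77 in WT mice 1 to 3. The KO mice all fell inside the WT range, and the difference was -0.03 ± 0.12 (SE), with a 95% interval of -0.31 to 0.25. Leaving out a mouse gave -0.15, without WT mouse 2, to 0.06, without WT mouse 3. Rrm2 is the member with a second probe set, which had a mean of 1.45 against 3.58 for the one used. Its values, from 1.42 to 1.54 in KO and from 1.41 to 1.46 in WT, lay far below the filter and were not used.

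The MCM genes had differences on the other side of 0 from Tk1, all 6 of them, with a median of -0.16, where the median of all genes tested was 0.03. Without WT mouse 2 the median was -0.01, with 3 of the 6 positive, and without KO mouse 3 it was -0.08, with 2 positive. Without WT mouse 1 it was -0.25. None of the 6 separated the genotypes.

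Mcm3 had the lowest difference among the members. It measured 3.48, 3.30 and 3.19 in KO mice 1 to 3, against 3.37, 3.93 and 3.69 in WT mice 1 to 3. WT mouse 1 lay within the KO range while WT mice 2 and 3 were above it. The difference was -0.34 ± 0.15 (SE), with a 95% interval of -0.68 to 0.0014, and leaving out WT mouse 2 gave -0.21, leaving out WT mouse 1 gave -0.49. Mcm4 measured 3.36, 3.63 and 3.36 in KO mice 1 to 3, against 3.51, 4.11 and 3.55 in WT mice 1 to 3. WT mouse 2 stood 0.53 above the mean of the 6 arrays, the largest deviation of any MCM gene. The Mcm4 difference of -0.28 ± 0.17 (SE) was -0.08 without that mouse. Mcm2, whose product also carries histones at the fork, measured 3.60, 3.55 and 3.25 in KO mice 1 to 3, against 3.53, 3.83 and 3.77 in WT mice 1 to 3. KO mouse 3 was the lowest, and the difference of -0.24 ± 0.13 (SE) was -0.13 without it.

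The remaining helicase genes differed by less than their standard error. Mcm5 measured 3.73, 3.73 and 3.26 in KO mice 1 to 3, against 3.50, 3.93 and 3.53 in WT mice 1 to 3, a difference of -0.08 ± 0.17 (SE). Mcm6 measured 3.94, 3.52 and 3.28 in KO mice 1 to 3, against 3.31, 4.001 and 3.51 in WT mice 1 to 3, a difference of -0.03 ± 0.21 (SE). In both genes the mice of the 2 genotypes were interleaved. Mcm7 measured 3.73, 4.01 and 3.92 in KO mice 1 to 3, against 3.61, 4.26 and 3.83 in WT mice 1 to 3, a difference of -0.01 ± 0.17 (SE). The sign of all 3 turned with 1 mouse left out, to 0.07 for Mcm5 without KO mouse 3, and to 0.17 for Mcm6 and 0.17 for Mcm7 without WT mouse 2. Over the 9 members other than Tk1, the 95% intervals of the differences spanned -0.68 to 0.45, or folds of 0.623 to 1.37.

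**Figure D2:**
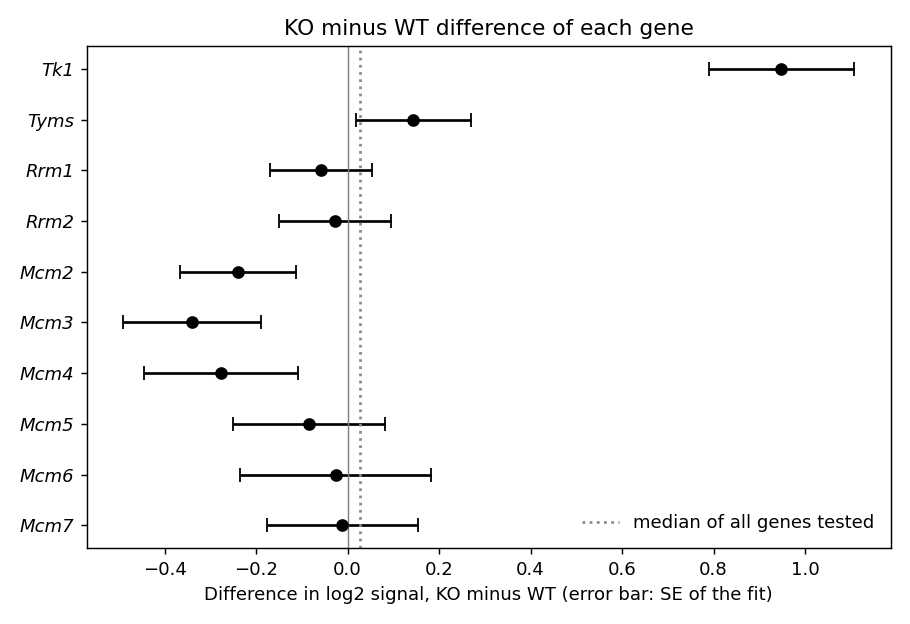
KO minus WT difference in log2 signal (horizontal axis) of each of the 10 genes, with the standard error of the fit as bars and the median of all genes tested, 0.03, as a dotted line. Tk1 stands at 0.95, and the 9 others lie between -0.34 and 0.14.

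Tk1 was also set against the other members within each array. After each gene was set to its own mean over the 6 arrays, Tk1 minus the mean of the 9 others was 0.17, 0.75 and 0.65 in KO mice 1 to 3, against -0.43, -0.86 and -0.29 in WT mice 1 to 3. These values restate the Tk1 gap already given, since each gene is centred on its own mean, and the contrast was widest in WT mouse 2, where the MCM genes were highest. The Tk1 difference minus the median difference of the 9 others was 1.01, and it ran from 0.89, without WT mouse 2, to 1.27, without KO mouse 1. With 16 added to every signal before the log it was 0.75. Signal levels were unlike, at 5.06 to 6.43 for Tk1 and 3.19 to 4.26, near the filter, for the 9 others.

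The MCM genes shared their highest array but not the order of the others. WT mouse 2 was the highest of the 6 for all 6 MCM genes. KO mouse 3 was the lowest for 4 of them, KO mouse 1 for Mcm4 and WT mouse 1 for Mcm7. Their mean deviation was 0.01, -0.01 and -0.25 in KO mice 1 to 3, against -0.16, 0.38 and 0.02 in WT mice 1 to 3. Among the precursor genes other than Tk1, Rrm1 was also highest in WT mouse 2, at 0.14 above its mean, Tyms stood 0.10 above its mean there, behind KO mouse 3, and Rrm2 had its lowest array there, at -0.23. Over the 6 arrays all 15 MCM pairs had a positive Pearson r, from 0.34 for Mcm2 with Mcm7 to 0.92 for Mcm2 with Mcm3, with a median of 0.70. Of all pairs of tested genes on these arrays, 7.52% reached that median and 53.7% were positive. With the mean of each genotype removed, the MCM pairs ran from 0.43 to 0.94, so they also varied together within genotypes. It rested largely on WT mouse 2, since without that array the median r of the 15 pairs was 0.39 and the lowest -0.32. Tk1 correlated with the MCM genes at -0.73 to 0.04 over the 6 arrays, and with Tyms, Rrm1 and Rrm2 at -0.09 to 0.29. Without WT mouse 2 those ranges widened, to between -0.60 for Mcm3 and 0.86 for Mcm7, and to between -0.52 for Rrm2 and 0.54 for Tyms. These are descriptions over 6 points that share the arrays.

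**Figure D3:**
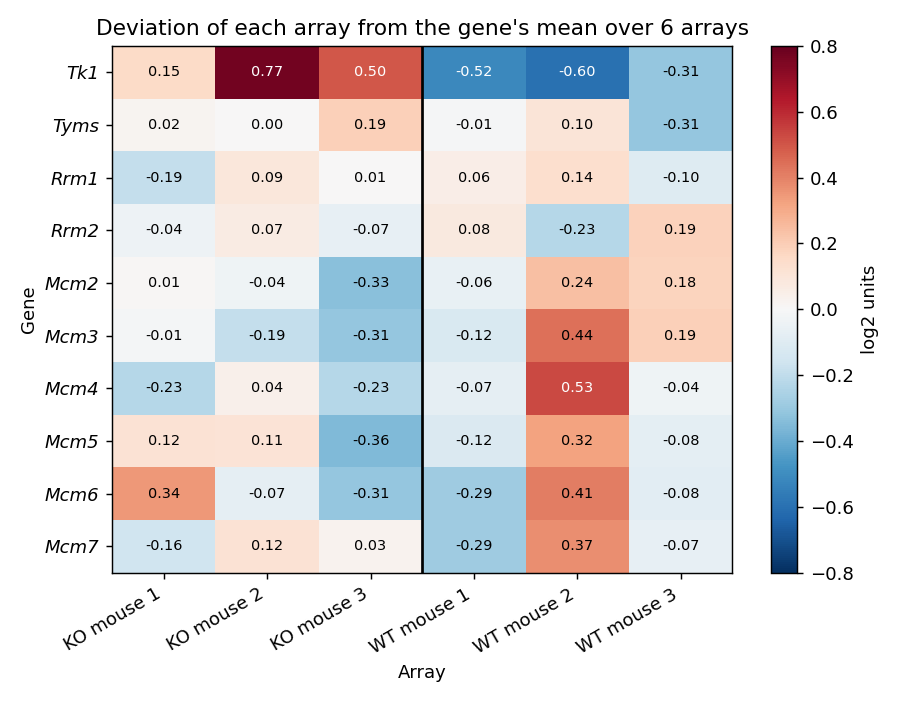
Deviation of each array (columns, KO mice left of the line and WT mice right) from the gene's mean over the 6 arrays, in log2 units, for the 10 genes (rows); red is above and blue below the mean. Tk1 is positive in the 3 KO mice and negative in the 3 WT mice, and the WT mouse 2 column is the highest for every MCM gene.

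Upstream sequences are shown for Tk1, which stood apart, and for the MCM genes whose window held an E2F motif, Mcm5, Mcm6 and Mcm7 (the first of its 2 windows). Each is the 250 bases before the annotated RefSeq start in the GRCm38.p6 mouse assembly, read 5′ to 3′ in the direction of the gene, with E2F motifs in capitals and base -1 next to the start. The motif searched on both strands was TTTCCCGC, TTTGGCGC, TTTCGCGC or TTTGCCGC.
Tk1, chr11:117826015-117826264, minus strand: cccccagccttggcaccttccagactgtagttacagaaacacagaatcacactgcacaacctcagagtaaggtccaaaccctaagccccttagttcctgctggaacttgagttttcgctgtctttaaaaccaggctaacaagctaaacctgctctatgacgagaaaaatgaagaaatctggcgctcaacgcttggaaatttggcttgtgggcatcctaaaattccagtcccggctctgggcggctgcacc
Mcm5, chr8:75109259-75109508, plus strand: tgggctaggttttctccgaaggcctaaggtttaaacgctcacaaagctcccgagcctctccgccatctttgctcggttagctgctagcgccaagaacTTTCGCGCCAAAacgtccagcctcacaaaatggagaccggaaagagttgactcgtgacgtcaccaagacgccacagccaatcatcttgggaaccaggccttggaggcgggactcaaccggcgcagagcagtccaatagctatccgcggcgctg
Mcm6, chr1:128359706-128359955, minus strand: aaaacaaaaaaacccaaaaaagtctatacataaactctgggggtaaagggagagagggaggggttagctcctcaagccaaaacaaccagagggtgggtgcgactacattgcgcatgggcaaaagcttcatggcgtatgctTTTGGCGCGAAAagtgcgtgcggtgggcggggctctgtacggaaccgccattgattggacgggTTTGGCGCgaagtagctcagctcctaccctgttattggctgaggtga
Mcm7, chr5:138171884-138172133, minus strand: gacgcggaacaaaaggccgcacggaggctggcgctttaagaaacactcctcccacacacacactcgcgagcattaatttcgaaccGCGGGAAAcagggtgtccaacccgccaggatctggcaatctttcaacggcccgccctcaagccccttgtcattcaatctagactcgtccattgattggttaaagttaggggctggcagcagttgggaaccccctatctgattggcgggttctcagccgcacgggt

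In Mcm5, the copies TTTCGCGC and, on the opposite strand, TTTGGCGC overlap in 1 run from base -153 to -142. Mcm6 held such an overlapping pair from base -110 to -99 and a further TTTGGCGC from -47 to -40. Mcm7 held TTTCCCGC on the opposite strand from -165 to -158. Of the 10 windows of 9 members, 3 held the E2F motif before the start, where 1.86% of all 32851 windows of this length did. The second Mcm7 window and those of Mcm2, Mcm3, Rrm1, Rrm2, Tyms and Tk1 had none there. With the 50 bases after the start included, Mcm3 had 2 matches and the first Mcm7 window 2 instead of 1. CCAAT, the box bound by NF-Y, stood on either strand in 8 of the 10 windows, beside 33.8% of all windows. The Tk1 and Tyms windows had none. The cell cycle element TTTGAA was in 1 of the 10, that of Mcm2, beside 16.0% of all windows. A match of letters is not a bound site, and a window without one says nothing about the factor.

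Tk1 lies head to head with Afmid, the kynurenine formamidase gene of tryptophan breakdown, and the annotated starts of the pair used for these windows are 95 bases apart, with the first bases of the genes overlapping on opposite strands. Afmid measured 8.07, 7.87 and 7.88 in KO mice 1 to 3, against 7.90, 7.85 and 7.98 in WT mice 1 to 3, a difference of 0.03 ± 0.10 (SE; limma adjusted p = 0.953). Syngr2, the gene on the other side, differed by 0.09 ± 0.12 (SE; limma adjusted p = 0.852). Neither gene beside Tk1 showed a gap between genotypes like that of Tk1.

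Genes next to the other members gave no call either. Of 23 genes beside any of the 10 members in the reference, or sharing its promoter or transcript, 15 had a usable probe set. Of these, 7 passed the signal filter and limma called 0 over all genes tested. At an unadjusted p under 0.05 there was 1, beside 9.13% of all genes tested. That gene was Hmox1, the inducible heme oxygenase beside Mcm5, which measured 4.32, 4.09 and 4.56 in KO mice 1 to 3, against 4.63, 4.67 and 4.82 in WT mice 1 to 3 (difference -0.38 ± 0.13, SE; limma adjusted p = 0.437). Prkdc, the DNA-dependent protein kinase gene beside Mcm4, differed by 0.05 ± 0.10 (SE). Cops6 and Ap4m1 beside Mcm7 differed by -0.13 ± 0.10 and 0.04 ± 0.10 (SE), and Tpra1 beside Mcm2 by 0.01 ± 0.12 (SE). Mir106b, a microRNA gene inside Mcm7, lay below the filter at 2.68 to 2.89 in KO and 2.53 to 2.73 in WT.

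The rest of the DNA precursor pathway gave no call. Of 22 listed genes 19 had a usable probe set and 18 were tested, and 0 were called by limma over all genes. Among the 18, 13 differences were negative and 5 positive. The median was -0.08, where that of all genes tested was 0.03. At an unadjusted p under 0.05 there were 2 lower and 0 higher, where 2.98% of all genes tested were lower and 6.16% higher. Without overlap, 1 gene lay higher and 4 lower in KO, beside 14.8% of all genes tested in either direction. Dck, deoxycytidine kinase, which salvages other deoxynucleosides, measured 2.92, 3.31 and 3.29 in KO mice 1 to 3, against 3.79, 3.53 and 3.50 in WT mice 1 to 3. The genotypes did not overlap for Dck, but the difference of -0.44 ± 0.14 (SE) did not pass (limma adjusted p = 0.393). Its values lay close to the signal filter. Slc29a1, an equilibrative nucleoside transporter that carries thymidine across the cell membrane, measured 7.50, 7.51 and 7.41 in KO mice 1 to 3, against 7.21, 7.31 and 7.36 in WT mice 1 to 3. It did not overlap between genotypes either, at 0.18 ± 0.09 (SE; limma adjusted p = 0.600). It has 2 probe sets, and with their mean the difference was 0.08 (limma adjusted p = 0.846).

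Origin licensing genes and partners of the helicase lay around 0. Of 25 genes, all with a probe set, 12 were tested and 13 fell below the filter. Limma called 0, and 0 were at an unadjusted p under 0.05, beside 9.13% of all genes tested. The median difference was 0.02. Orc3, a subunit of the origin recognition complex, measured 5.38, 5.30 and 5.43 in KO mice 1 to 3, against 5.01, 5.27 and 5.23 in WT mice 1 to 3 (difference 0.20 ± 0.10, SE; limma adjusted p = 0.600), and without WT mouse 1 the difference was 0.12. Cdt1, which loads the MCM ring onto origins, measured 3.17, 3.31 and 3.15 in KO mice 1 to 3, against 3.37, 3.44 and 3.36 in WT mice 1 to 3 (difference -0.18 ± 0.09, SE; limma adjusted p = 0.595). Both genes kept the genotypes apart by a narrow margin, in opposite directions. They were named for the smallest unadjusted p in each direction, so the lack of overlap comes partly with that choice. Of the 12 tested, 1 lay higher and 1 lower in KO without overlap, beside 14.8% of all genes tested in either direction.

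Among polymerase and replication fork genes, 22 of 34 were tested, 0 were called, and the median difference was 0.01. At an unadjusted p under 0.05 there were 2 lower and 0 higher, where 2.98% of all genes tested were lower and 6.16% higher. Rfc3, a subunit of the clamp loader, measured 3.02, 3.05 and 2.89 in KO mice 1 to 3, against 3.45, 3.35 and 3.45 in WT mice 1 to 3. The gap between genotypes was wider than the spread within either, and the difference was -0.43 ± 0.09 (SE; limma adjusted p = 0.277), close to the signal filter. Rfc3 was named for the smallest unadjusted p among the lower genes, so its separation comes partly with that choice. Of the 22 tested, 1 lay higher and 2 lower in KO without overlap, beside 14.8% of all genes tested in either direction. Dna2, a nuclease and helicase of Okazaki fragment processing, was at 0.33 ± 0.15 (SE; limma adjusted p = 0.559), with WT mouse 3 inside the KO range; without that mouse it was at 0.45, and without WT mouse 1 at 0.21.

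Regulators of the G1 to S transition gave 28 genes tested of 36 listed, 0 calls and a median of -0.0027. At an unadjusted p under 0.05 there were 2 higher and 2 lower, where 6.16% of all genes tested were higher and 2.98% lower. Without overlap, 3 of the 28 lay higher and 4 lower in KO, beside 14.8% of all genes tested in either direction. Rb1, the retinoblastoma protein that restrains E2F, measured 5.44, 4.78 and 5.23 in KO mice 1 to 3, against 4.56, 4.99 and 4.54 in WT mice 1 to 3 (difference 0.45 ± 0.19, SE; limma adjusted p = 0.514). With the mean of its 2 probe sets the Rb1 difference was 0.22, and leaving out a mouse gave 0.31, without KO mouse 1, to 0.64, without KO mouse 2. Ccnd3, cyclin D3, which drives its phosphorylation, measured 4.28, 4.45 and 4.61 in KO mice 1 to 3, against 4.62, 4.70 and 4.98 in WT mice 1 to 3 (difference -0.32 ± 0.13, SE; limma adjusted p = 0.509). The Rb1 groups overlapped, and the Ccnd3 groups almost touched. Myc, named after its values were seen, measured 4.30, 4.05 and 3.62 in KO mice 1 to 3, against 4.87, 7.07 and 4.31 in WT mice 1 to 3. WT mouse 2 stood far above the others for Myc and was also the highest array for every MCM gene; the part of either in the other was not tested. The Myc difference was -1.43 ± 0.60 (SE; limma adjusted p = 0.522) and -0.60 without WT mouse 2.

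Genes of G2 and mitosis were at the bottom of the signal range. Of 25 with a probe set, 24 fell below the filter, among them Mki67 and Top2a. Mki67 was at 2.21 to 2.37 in KO and 2.29 to 2.49 in WT. Top2a was at 1.73 to 1.78 in KO and 1.81 to 1.97 in WT. Below the filter, Top2a, Aurka and Ube2c were lower in KO without overlap, and Plk1, Bub1 and Foxm1 were higher without overlap. Untested genes of the other replication lists did so too, with Orc1, Mcm8, Donson and Fen1 lower and Chaf1b higher. The share of 14.8% without overlap covers tested genes alone, and none was taken for genes below the filter. All of these genes were named after their values were seen, and nothing is read from signals at this level. The 1 gene tested, Cdc20, a mitotic activator of the anaphase-promoting complex, differed by -0.07 ± 0.09 (SE; limma adjusted p = 0.858).

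**Figure D4:**
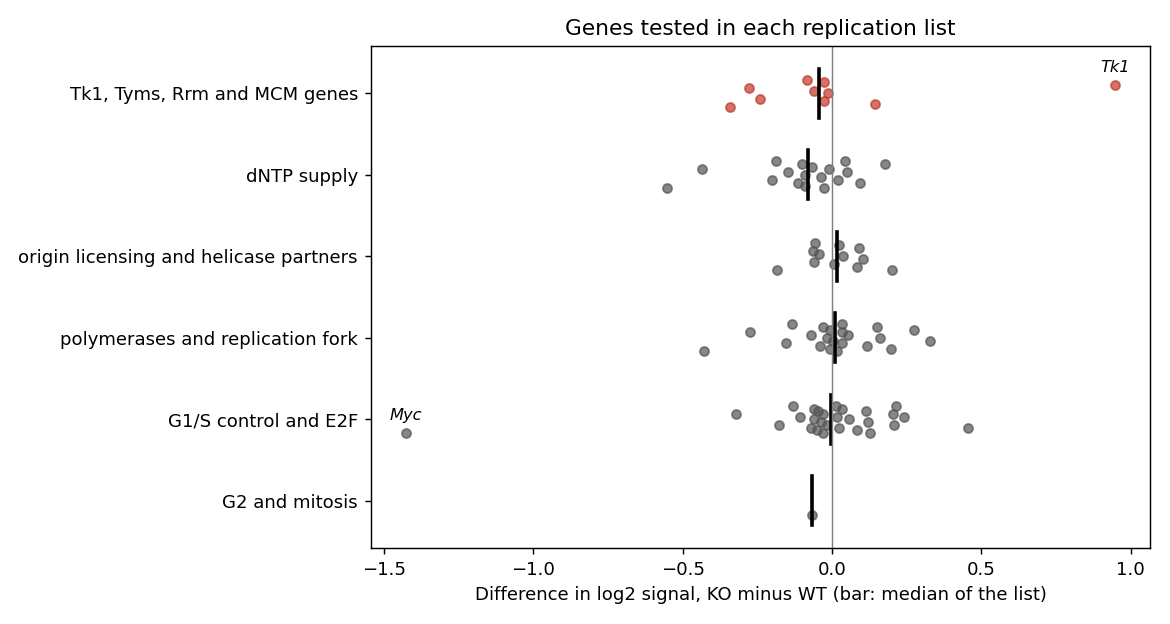
KO minus WT difference in log2 signal (horizontal axis) of every gene tested in the set of 10 and in the 5 lists of replication genes (rows), 1 point per gene, with the list's median as a black bar. The medians lie between -0.08 and 0.02, with Tk1 at 0.95 and Myc at -1.43 as the outermost points.

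Markers of other cell types were read on the same arrays beside Tk1. Erythroid markers had 4 of 7 genes with a probe set, 0 above the filter, and a mean over the 4 of 2.52 to 2.60 in KO and 2.50 to 2.65 in WT. T and NK cell markers, 6 of 7 with a probe set and 1 above the filter, had a mean of 2.56 to 2.68 in KO and 2.61 to 2.73 in WT. B and plasma cell markers, 5 of 6 with a probe set and 1 above the filter, had a mean of 2.70 to 2.86 in KO and 2.50 to 2.84 in WT. None of these lists separated the genotypes. Kupffer cell markers, with 7 of 7 tested and 0 called, had a mean of 5.32, 5.49 and 5.92 in KO mice 1 to 3, against 6.01, 5.15 and 5.23 in WT mice 1 to 3, so KO mouse 3 and WT mouse 1 were the high ones. Of these 7 markers 6 had positive differences, with a median of 0.17 where that of all genes tested was 0.03. None of the 7 separated the genotypes. Marco, named after its values were seen, was the exception at -0.29. It was at 6.86 in WT mouse 1, beside 3.98 and 5.09 in WT mice 2 and 3. Endothelial markers had a mean of 5.91 to 6.14 in KO and 5.93 to 6.19 in WT, stellate markers 5.89 to 6.06 in KO and 5.75 to 6.20 in WT, and hepatocyte markers 10.55 to 10.59 in KO and 10.58 to 10.60 in WT. Of the 7 stellate markers, 1 lay lower in KO without overlap, beside 14.8% of all genes tested in either direction. That gene, Hgf, named after its values were seen, was at 5.31 to 5.44 in KO and 5.45 to 5.83 in WT (limma adjusted p = 0.442). The part of any of these in the Tk1 signal was not tested.

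Of the other 11089 genes tested, 164 correlated with Tk1 at a Pearson r of 0.9 or more over the 6 arrays, and 42 at 0.95 or more. With placeholder symbols (Rik, or Gm and a number) left out, the 5 closest were Ilkap, Tarbp1, Ddx10, Snora2b and Hook1. Their r was 0.996, 0.991, 0.990, 0.988 and 0.986. Ilkap, a protein phosphatase associated with integrin-linked kinase, measured 5.66, 5.87 and 5.74 in KO mice 1 to 3, against 5.36, 5.33 and 5.43 in WT mice 1 to 3. It spanned a narrower range than Tk1. The differences of the 5 genes ran from 0.16 for Hook1 to 0.39 for Ilkap, and limma's adjusted p-values from 0.315 to 0.611. No other member was among the 164. As the 5 were picked for following Tk1, the order of their mice and the side of their differences come with that choice.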

How the data were processed

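Liver RNA of 6 mice, 3 KO and 3 WT, was measured on 1 array each. Per the labels' protocols, Trizol-extracted RNA was turned into biotinylated cRNA and hybridised to whole-transcript Affymetrix arrays. The authors deposited log2 values for 41345 probe sets. Their summary and normalization methods are unknown here, and the scale was inferred from the range of values. Symbols came from the platform annotation, updated through Entrez numbers to a GRCm38.p6 gene table. Only the 23521 probe sets with 1 symbol were used, not the 1814 with several or the 16010 with none listed. The highest mean over the 6 arrays chose 1 probe set per gene, giving 22180 genes, of which the upper 50% by mean signal were tested.

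KO and WT were compared by limma 3.58.1 under R 4.3.3, using lmFit with genotype alone and two-sided eBayes tests, with Benjamini-Hochberg adjustment over all genes tested at 0.05. Each difference is the KO mean minus the WT mean of log2 signal. The members and gene lists were chosen with earlier results of these data known. Named were the members, Gpr146, Alb as a hepatocyte marker, and the genes beside a member. The 5 genes most correlated with Tk1 were named too, placeholder symbols left out. Each replication list gave its called genes or otherwise the smallest unadjusted p in each direction. Others are said to be named after their values were seen. Alternatives covered the signal filter, probe set choice, normalization, variance model, array weights, a pseudocount of 16, a replicate block and leaving out each mouse. The number of mice limits precision, with a median standard error of 0.114, and weak array signals understate folds. Upstream windows came from RefSeq with 9 of 10 members matched; Mcm4 was not used there.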

Additional observations from a re-analysis of the deposited data

How the results depend on the processing

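The number of genes called over all genes tested, 4 in the analysis reported, was 0 in the upper 25% of signal, 1 with the pseudocount and 1 with the replicate block, and ran from 1 to 51 with a mouse left out, the 51 without WT mouse 3, 2 without WT mouse 1 and 1 without any other single mouse. No member and no gene of the 5 replication lists was called in any of the 15 alternatives that tested it; in the upper 25% of signal these held 1 member, Tk1, and no gene of G2 and mitosis. Gpr146, at an adjusted p of 0.0702 in the analysis reported, was at 0.0204 with median centring, 0.0272 with trend and robust variance and 0.0268 without WT mouse 3; over its 14 alternatives the adjusted p ran from 0.0204 to 0.268. With the mean of probe sets, Slc29a1 was 0.0815 and Rb1 0.223. The Tk1 difference lay between 0.72, with the pseudocount, and 1.11, without KO mouse 1, over all 15. Tk1 minus the median of the other members tested was 0.75 with the pseudocount and ran from 0.89 to 1.27 with a mouse left out; it had no value in the upper 25% of signal, where Tk1 was the 1 member tested. Rrm2 was not tested with the mean of its probe sets. Among genes beside a member, Tpra1 was -0.0337 with quantile normalization, -0.0029 with median centring and -0.0127 with array weights, and ran from -0.086 to 0.080 with a mouse left out. Ap4m1 was -0.0102 with quantile normalization and ran from -0.034 to 0.083 with a mouse left out, Afmid from -0.039 to 0.065 and Prkdc from -0.017 to 0.110. The cause of these moves was not tested.

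KO and WT mice share the numbers 1 to 3 in the labels. Deviations of same-numbered mice correlated at 0.0551, -0.187 and 0.147, and 1 of 3 KO mice correlated best with its own number, so the numbers were not taken as pairs; with the replicate block 1 gene was called. Weak signals limit the 9 genes other than Tk1, whose values lay between 3.19 and 4.26, near the filter at 2.99.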
